A study of Mus musculus with 12 samples.

Results

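The homologous recombination and Fanconi anaemia genes were a set of 36 named genes of recombination, crosslink repair and checkpoint signalling, followed in the RNA of mouse bone marrow-derived macrophages. All 36 symbols were listed as genes in each of the 4 deposited tables of normalized counts, out of 16516 genes listed in any of them, and the lowest value of a member in any library rested on 8 reads. The study measured RNA by sequencing in 12 libraries, 3 in each of 4 groups. Wild-type macrophages, labelled WTfl/fl, and MGMT knockout macrophages, labelled MGMT KO and without a named Cre or deleted exon, were each kept with DMSO, the vehicle, or with DMXAA, an agonist of the mouse DNA-sensing adaptor STING, for 24 h. The series text gives the DMXAA dose as 10 mg/ml. MGMT is the protein that removes alkyl groups from guanine in DNA. All libraries carry the same batch label, and the labels do not say which libraries came from separate mice, so p-values measure the spread between these libraries. Library names carry the numerals II, III and IV in both DMSO groups and I, II and III in both DMXAA groups, so the numerals differ with treatment.

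Homologous recombination copies a broken stretch of DNA from an intact sister molecule. The break is sensed by the Mre11a, Rad50 and Nbn complex and its ends are cut back by Rbbp8 (CtIP) and Exo1. Brca1 with Bard1, and Palb2 with Brca2, then act on the exposed strand, with Rad51b, Rad51c, Rad51d, Xrcc2 and Xrcc3 and with Rad54l and Rad54b. The Fanconi pathway handles crosslinks between the strands: a core complex with the ubiquitin-conjugating enzyme Ube2t marks the Fancd2 and Fanci pair, and helicases and nucleases complete the repair. The kinases Atm, Atr, Chek1 and Chek2 stop the cell cycle meanwhile. Recombination and the Fanconi pathway act mainly in S and G2 phase, and transcripts of many of these genes are higher in dividing cells than in resting ones.

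The stretches of 120 bases before the transcription start are shown for 6 members whose expression is described below: 5 that were lower in KO than in WT macrophages, and Mre11a as a member that was not called. They are RefSeq sequences on build GRCm38.p6, 5′ to 3′ on the strand of the gene, with each CCAAT box (CCAAT, or ATTGG where it lies on the other strand) in capitals. Bard1, Palb2, Blm, Fanci and Chek1, also lower in KO under DMSO, held no CCAAT box in this stretch and are not shown. Brca1 lies at chr11:101551956-101552075 (minus strand), Ube2t at chr1:134962445-134962564 (plus), Rad54l at chr4:116123691-116123810 (minus), Brip1 at chr11:86201194-86201313 (minus), Fanca at chr8:123318577-123318696 (minus) and Mre11a at chr9:14784534-14784653 (plus).
Brca1: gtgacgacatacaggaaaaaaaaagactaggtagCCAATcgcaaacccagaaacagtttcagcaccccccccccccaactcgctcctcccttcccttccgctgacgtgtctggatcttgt
Ube2t: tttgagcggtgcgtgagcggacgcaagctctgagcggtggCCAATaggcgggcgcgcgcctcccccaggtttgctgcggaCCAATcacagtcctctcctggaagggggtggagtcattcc
Rad54l: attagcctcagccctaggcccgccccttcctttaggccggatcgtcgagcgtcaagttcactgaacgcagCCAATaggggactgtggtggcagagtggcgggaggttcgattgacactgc
Brip1: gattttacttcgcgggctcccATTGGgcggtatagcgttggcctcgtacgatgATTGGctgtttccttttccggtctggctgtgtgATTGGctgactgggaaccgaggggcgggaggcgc
Fanca: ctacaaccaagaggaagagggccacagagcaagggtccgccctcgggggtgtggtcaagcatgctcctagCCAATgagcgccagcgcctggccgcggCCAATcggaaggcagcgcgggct
Mre11a: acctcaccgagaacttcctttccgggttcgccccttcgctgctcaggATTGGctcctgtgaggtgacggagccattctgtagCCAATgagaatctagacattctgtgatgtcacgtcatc
Of the 36 members, 27 had a promoter in the RefSeq table, and each was searched from 250 bases before to 50 bases after the start, on both strands. CCAAT was in 18 of the 27 (66.7%), beside 41.1% of 27025 gene symbols and 37.4% of 32851 promoters in the table. A CCAAT was in 7 of the 10 promoters of members lower in KO under DMSO and in 11 of the 17 others. The E2F letters TTTCCCGC, TTTCGCGC, TTTGCCGC or TTTGGCGC were in 5 members (18.5%, beside 2.6% of symbols): Bard1, Brca2, Chek2, Fancg and Rad51c. The letters TTTGAA of the CHR element were in 2 (7.41%, beside 20.2%) and the interferon response element (GAAA, any 2 bases, GAAA) in 4 (14.8%, beside 3.99%). These matches describe the letters in the window only.

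The libraries held 79481824 to 98135603 reads in listed genes. No library stood apart: each correlated across genes at 0.99 with its own group on the log2 scale. Mgmt, the targeted gene, was at 118, 131 and 178 normalized counts in the KO libraries under DMSO and 248, 233 and 269 in WT (log2 −0.83, limma adjusted p = 0.00566), so the KO libraries still held Mgmt reads. Gene-level counts do not show which exons they came from. Of the macrophage markers Adgre1, Csf1r, Cd68, Itgam, Fcgr1, Mertk, Cd14, Lyz2 and Spi1, 0 of 9 were at 0 in any group. Their summed level was 16906 to 17728 CPM (reads scaled for depth) in KO and 20773 to 21226 in WT under DMSO, with Lyz2 alone at a mean of 6991 and 10833, and 6 of the 9 were not called between the genotypes. Under DMXAA the sum was 9623 to 9694 in KO and 11664 to 11905 in WT. There 2 markers were lower in KO and 1 higher, beside 10.8% and 10.7% of all tested genes. With DMXAA against DMSO, 3 markers were higher and 5 lower in WT, beside 31.7% and 31.1% of tested genes. In KO 3 were higher and 6 lower, beside 33.7% and 32.9%.

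The members differed widely in level. As reads per kilobase of exon scaled for depth (RPKM), WT macrophages under DMSO held between 0.127 and 18.7, with a median of 0.806. Rad51d, a strand exchange factor, had the highest level at 18.7 ± 1.05 RPKM (SD, n = 3), followed by Fance of the Fanconi core at 13.4 ± 0.926 and Chek2, the kinase downstream of Atm, at 9.72 ± 0.709. At the low end, Exo1 was at 0.222 ± 0.0143 RPKM, Rad51b at 0.207 ± 0.0207 and Bard1, the partner of Brca1, at 0.127 ± 0.0139. Brca1 itself was at 0.459 ± 0.0696 RPKM. The 14 members that were lower in KO under DMSO had WT levels between 0.127 and 1.92 RPKM (median 0.668), and the 22 others between 0.207 and 18.7 (median 1.2), so the 10 most abundant members were all among those not called. Some members share exon bases with a gene of the opposite strand: Fancc 18.6%, Fanci 16% (with Polg), Rad54l 15.4% (Lrrc41), Fancf 15% (Gas2), Fancl 13.7% (Vrk2), Fanca 10.5% (Zfp276) and Fancd2 3.24% (Fancd2os). Reads of such partners could be counted in them if the counting did not use strand, which is not given in the sources used here.

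**Figure D1:**
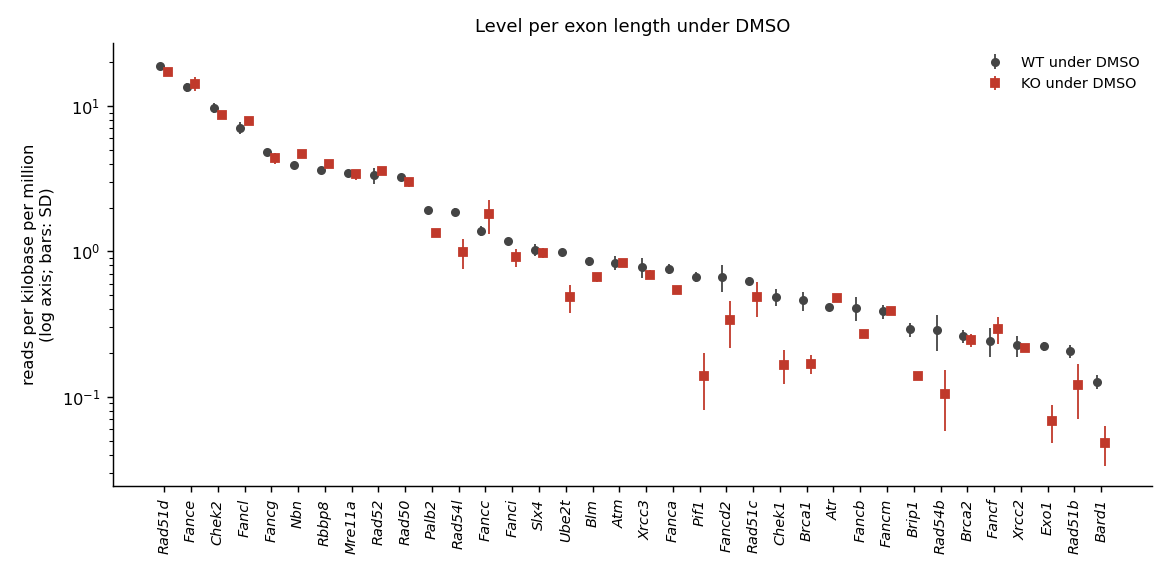
Reads per kilobase of exon scaled for depth (RPKM, log axis) of the 36 members under DMSO, in order of the WT mean. Points are means of 3 libraries and bars are SD, for WT (circles) and KO (squares). Levels run from 18.7 for Rad51d to 0.127 for Bard1 in WT, and the KO points fall below the WT points most clearly among the less abundant genes.

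The first comparison asked how the members differed between MGMT KO and WT macrophages under vehicle. Of the 36 members, 14 (38.9%) were lower in KO and 0 were higher, where 16.6% of the 12814 tested genes were called (7.04% higher and 9.58% lower). A gene was called at a limma adjusted p below 0.05 over all tested genes. The 14 were Brca1, Bard1, Palb2, Rad54l, Rad54b, Exo1, Fanca, Ube2t, Fancd2, Fanci, Blm, Brip1, Pif1 and Chek1, with log2 changes from −2.35 to −0.38. The median log2 change of the 36 was −0.18, beside 0.01 for all tested genes, and 28 of the 36 were below 0. Of the 36 members 9 (25%) were called and at least 2-fold lower, where 2.91% of tested genes were called with a change of at least 2-fold in either direction. At an unadjusted limma p below 0.05, 19 members were lower and 1 (Nbn) was higher, beside 15.4% of tested genes lower and 13.9% higher. In addition, edgeR and DESeq2 on the recovered reads also called 14 lower and 0 higher.

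Under DMXAA the same genotype comparison used 6 other libraries. Here 15 of 36 (41.7%) were lower in KO and 0 were higher, where 21.5% of 12499 tested genes were called (10.7% higher and 10.8% lower). The 15 were Brca1, Bard1, Rad51c, Rad52, Rad54l, Rad54b, Exo1, Fanca, Fancb, Fancc, Ube2t, Fancd2, Fanci, Pif1 and Chek1. The median log2 change of the 36 was −0.23, beside a median close to 0 for all tested genes, and 32 were below 0. At least 2-fold lower and called were 7 members (19.4%), where 2.67% of tested genes were called with a change of at least 2-fold in either direction. At an unadjusted limma p below 0.05, 17 were lower and 0 higher, beside 17% and 16.7% of tested genes. edgeR called 15 lower and DESeq2 12, both with 0 higher. The count fell to 9 without KO DMXAA library 1, without WT DMXAA library 1 and without WT DMXAA library 3.

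In both conditions 11 genes were lower in KO, which is 78.6% of the 14 and 73.3% of the 15: Brca1, Bard1, Rad54l, Rad54b, Exo1, Fanca, Ube2t, Fancd2, Fanci, Pif1 and Chek1. Palb2, Blm and Brip1 passed only under DMSO, and Rad51c, Rad52, Fancb and Fancc only under DMXAA. The overlap between conditions among all tested genes was not counted. Whether the difference itself changed with DMXAA is given with the interaction test further on. In bulk RNA, fewer dividing cells and less of a transcript in each cell cannot be told apart. The ranges of all 3 KO and all 3 WT libraries did not overlap for 21 of 36 members under DMSO (58.3%, beside 34.7% of tested genes), 19 of them lower in KO. Under DMXAA this held for 18 members (50%, beside 37.6%), 17 of them lower.

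**Figure D2:**
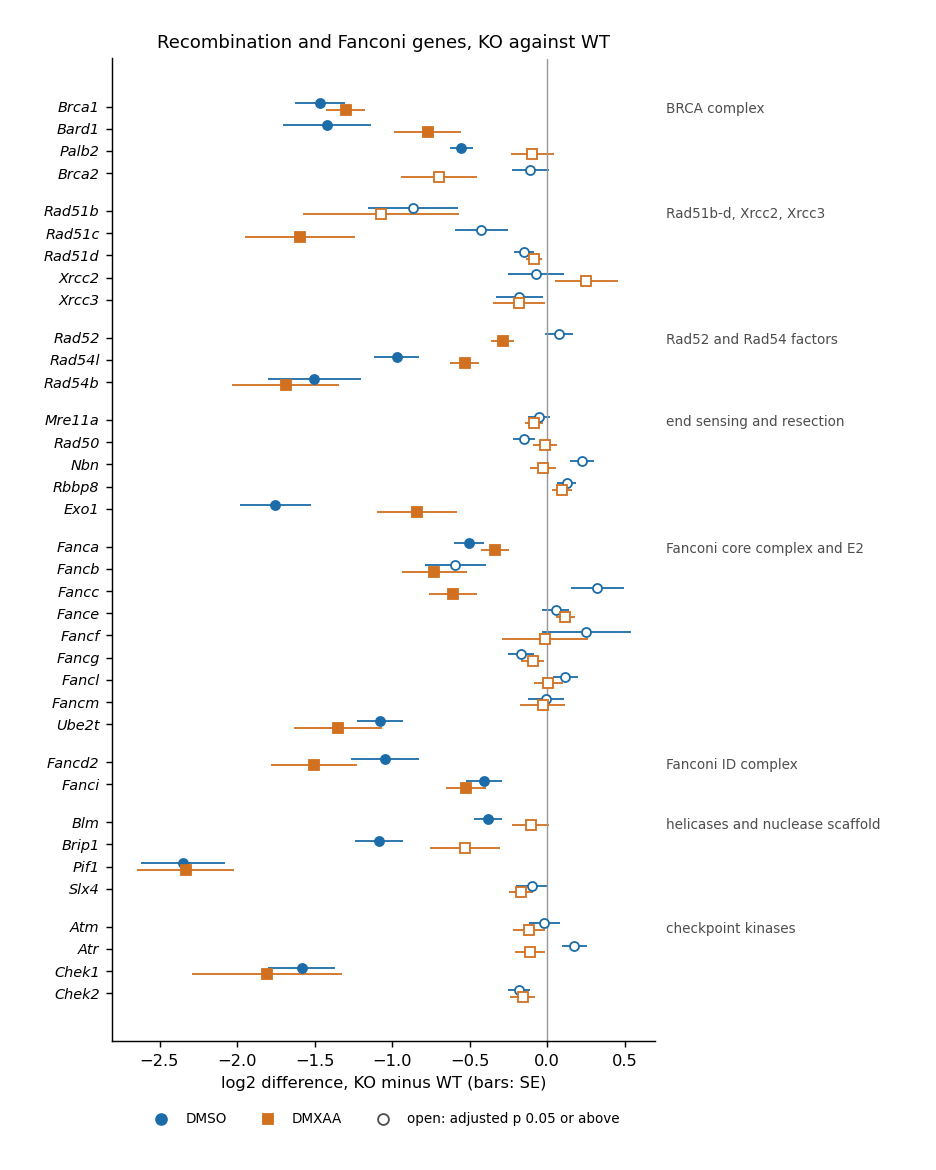
Log2 change of each of the 36 members, KO minus WT, under DMSO and under DMXAA, grouped by role. Points are limma estimates from 3 against 3 libraries, bars are standard errors, and open points have an adjusted p of 0.05 or above. All filled points lie below 0, from −0.29 for Rad52 to −2.35 for Pif1.

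Of the BRCA complex, 3 of 4 members were lower in KO under DMSO and 2 of 4 under DMXAA. Brca1 (chr11:101488764-101551955, minus strand, mm10), the ubiquitin ligase that steers breaks into recombination, had normalized counts of 287, 369 and 379 in WT and 141, 105 and 127 in KO under DMSO. Under DMXAA the counts were 323, 304 and 329 in WT and 118, 124 and 147 in KO. All KO libraries lay below all WT libraries in both conditions. This was a log2 change of −1.46 ± 0.16 (SE; limma adjusted p = 0.000118) under DMSO and of −1.30 ± 0.13 (SE; limma adjusted p = 5.71e-05) under DMXAA.

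Bard1, which forms the ligase with Brca1, was at 67.0, 67.6 and 55.4 in WT and 20.5, 31.5 and 18.6 in KO under DMSO (log2 change −1.42 ± 0.28 SE, limma adjusted p = 0.00566). The DMXAA libraries had 65.5, 71.4 and 61.8 in WT and 33.9, 41.9 and 39.7 in KO (log2 change −0.77 ± 0.22 SE, limma adjusted p = 0.0279). The groups were apart in both conditions, although the call under DMXAA was lost in DESeq2 (adjusted p = 0.0683). Palb2, the bridge between Brca1 and Brca2, was at 1247, 1284 and 1202 in WT and 869, 839.7 and 833 in KO under DMSO (log2 change −0.55 ± 0.07 SE, limma adjusted p = 0.000417). Under DMXAA its groups overlapped, with 1137, 788 and 878 in WT and 1018, 785 and 806 in KO (log2 −0.10, limma adjusted p = 0.686). Brca2, the partner of Palb2, was not called in either condition. It was at 289, 344 and 308 in WT and 319, 291 and 263 in KO under DMSO (log2 −0.11, limma adjusted p = 0.605), and at 154, 109.6 and 179 in WT and 86.7, 66.2 and 121 in KO under DMXAA (log2 −0.70, limma adjusted p = 0.0673).

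Rad51b, Rad51c, Rad51d, Xrcc2 and Xrcc3, which act in strand exchange, were called in 0 of 5 cases under DMSO and 1 of 5 under DMXAA. Rad51c was at 170.5, 101 and 108 in WT and 41.5, 67.2 and 22.8 in KO under DMXAA (log2 change −1.59 ± 0.35 SE, limma adjusted p = 0.00885). Every KO library was lower than every WT library there. Under DMSO it was at 230.3, 254 and 243 in WT and 151, 238 and 162 in KO, and the KO library at 238 lay among the WT values (log2 −0.43, limma adjusted p = 0.122). Without that library the DMSO difference was called as well, at −0.63 (limma adjusted p = 0.0178). Rad51b was low and scattered, at 61.3, 11.7 and 24.8 in KO under DMXAA and 54.1, 82.2 and 40.5 in WT (log2 −1.07, limma adjusted p = 0.165). Rad51d (log2 −0.15, limma adjusted p = 0.135 under DMSO), Xrcc2 (log2 −0.07, limma adjusted p = 0.826) and Xrcc3 (log2 −0.18, limma adjusted p = 0.47) were not called in either condition.

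Among the Rad52 and Rad54 factors, 2 of 3 were lower in KO under DMSO and 3 of 3 under DMXAA. Rad54l, the motor protein that helps strand invasion, was at 1379.8, 1219.9 and 1209.6 in WT and 682, 794 and 499 in KO under DMSO (log2 change −0.97 ± 0.14 SE, limma adjusted p = 0.000909). With DMXAA the counts were 1093, 1104 and 922 in WT and 649.5, 728 and 777 in KO (log2 change −0.53 ± 0.09 SE, limma adjusted p = 0.00256). Its relative Rad54b was at 153, 183 and 103 in WT and 37.0, 78.8 and 41.7 in KO under DMSO, then at 30.1, 53.8 and 58.6 in WT and 15.1, 12.7 and 12.9 in KO under DMXAA. These gave log2 changes of −1.50 ± 0.30 (SE, limma adjusted p = 0.00577) and −1.69 ± 0.35 (SE, limma adjusted p = 0.00599). The value of Rad54b is uncertain, since 35.8% of its exon bases are shared with Fsbp on the same strand. Rad52, which anneals single strands, was at 1524, 1608 and 1919.6 in WT and 1828, 1658 and 1822 in KO under DMSO, with overlapping groups (log2 0.08, limma adjusted p = 0.624). Under DMXAA it was at 1363, 1265 and 1224 in WT and 1006, 1015 and 1141 in KO, a small difference with the groups apart (log2 change −0.29 ± 0.07 SE, limma adjusted p = 0.0198).

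The end sensing and resection genes split. Exo1, the exonuclease of long resection, was the 1 of 5 that was lower in KO, and it was so in both conditions. It was at 169, 172 and 153 in WT and 52.6, 62.1 and 34.0 in KO under DMSO (log2 change −1.75 ± 0.23 SE, limma adjusted p = 0.000363). The DMXAA libraries had 53.0, 44.0 and 52.2 in WT and 25.5, 24.3 and 32.8 in KO (log2 change −0.84 ± 0.26 SE, limma adjusted p = 0.0413), a call that DESeq2 did not make (adjusted p = 0.0976). The genes of the sensor complex were not called. Mre11a, its nuclease, was at 1765, 1804 and 1807 in WT and 1821, 1777 and 1598 in KO under DMSO, a log2 difference of −0.05 with a 95% interval of −0.21 to 0.11. Rad50, its structural arm, had a log2 change of −0.15 (limma adjusted p = 0.2) and Rbbp8, which starts resection, had a log2 change of 0.13 (limma adjusted p = 0.196). Nbn, the subunit that recruits Atm, was at 903, 823 and 902 in WT and 991, 1049 and 1028 in KO, the KO libraries being higher without passing the test (log2 0.22, limma adjusted p = 0.0756).

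**Figure D3:**
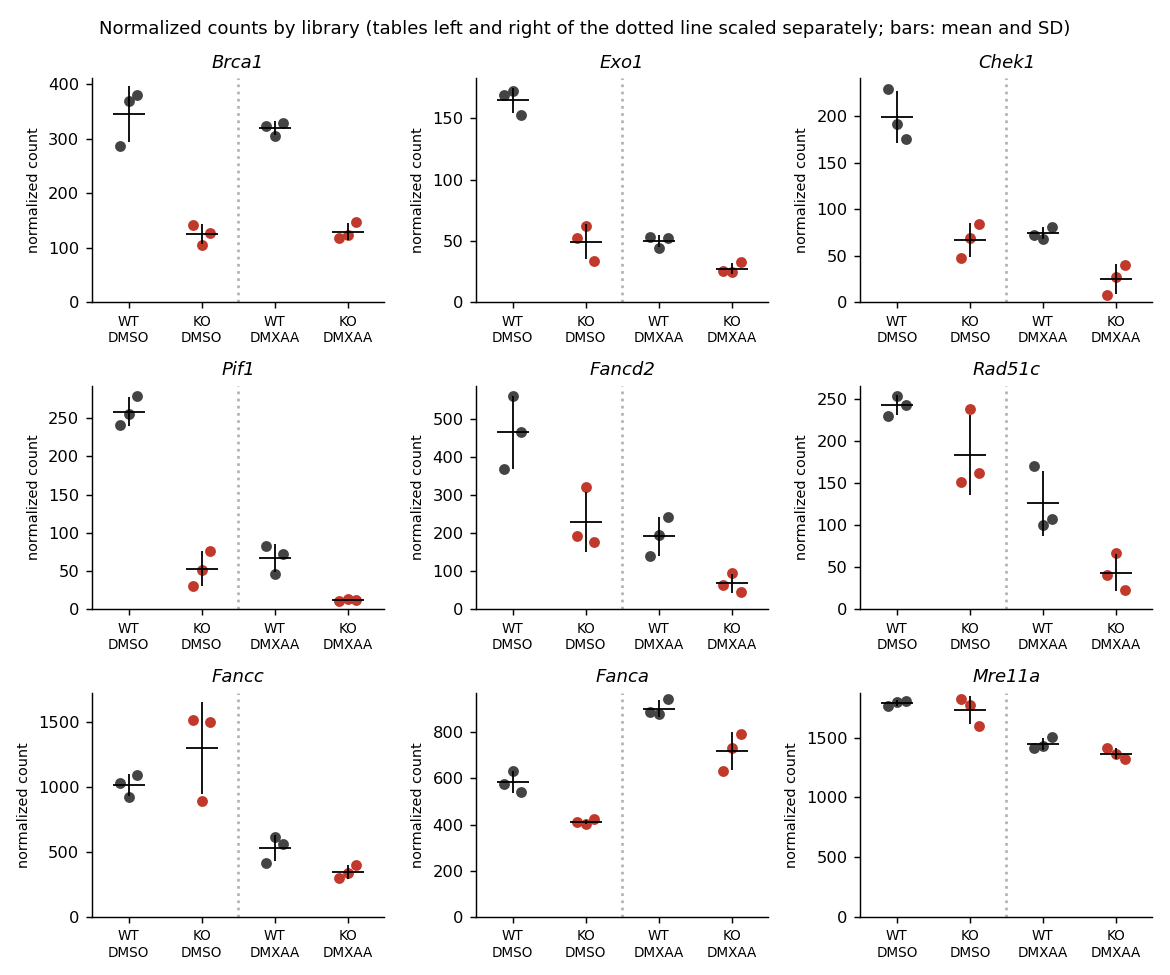
Normalized counts of 9 members in each of the 12 libraries. Each point is a library, horizontal lines are means and vertical bars SD (n = 3), and the DMSO and DMXAA tables either side of the dotted line were scaled separately. Brca1, Exo1, Chek1, Pif1 and Fanca are lower in KO than in WT in both conditions, and Mre11a overlaps between genotypes. Because of the separate scaling, levels cannot be compared across the dotted line.

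In the Fanconi core complex and its conjugating enzyme, 2 of 9 members were lower in KO under DMSO (Fanca and Ube2t) and 4 of 9 under DMXAA (these and Fancb and Fancc). Ube2t, which carries ubiquitin to Fancd2, was at 420.0, 415 and 425 in WT and 158, 242 and 205 in KO under DMSO (log2 change −1.08 ± 0.15 SE, limma adjusted p = 0.000596). With DMXAA the counts were 166, 233 and 129 in WT and 59.4, 48.7 and 101 in KO (log2 change −1.35 ± 0.28 SE, limma adjusted p = 0.00683). Fanca, a scaffold of the core, was at 577, 634 and 543 in WT and 410.0, 401 and 422 in KO under DMSO (log2 change −0.50 ± 0.10 SE, limma adjusted p = 0.00444). Under DMXAA it was at 888, 878 and 944 in WT and 631, 731 and 793 in KO (log2 change −0.34 ± 0.09 SE, limma adjusted p = 0.0236). The groups of both genes were apart in both conditions.

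Fancb, which works with the ligase Fancl, was at 116, 83.7 and 123 in WT and 69.2, 69.5 and 71.3 in KO under DMSO, just short of the threshold (log2 −0.59, limma adjusted p = 0.0636). The DMXAA libraries had 111, 83.2 and 93.7 in WT and 58.4, 46.7 and 68.5 in KO (log2 change −0.73 ± 0.21 SE, limma adjusted p = 0.0318; DESeq2 adjusted p = 0.0507). Fancc, a further core subunit, passed under DMXAA but not under DMSO. Under DMSO it was at 1032, 921 and 1087 in WT and 1514, 893 and 1495 in KO, where 2 KO libraries lay above and 1 below the WT range (log2 0.32, limma adjusted p = 0.242). Under DMXAA all KO libraries were below the WT libraries, at 296, 339 and 401 against 417, 613 and 558 (log2 change −0.61 ± 0.15 SE, limma adjusted p = 0.0168). Fance, Fancf, Fancg, Fancl and Fancm were not called, with log2 changes under DMSO of 0.05, 0.25, −0.17, 0.12 and −0.01. Under DMXAA these were 0.12, −0.01, −0.09, 0.01 and −0.03.

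Both members of the Fanconi ID pair, the target of the core complex, were lower in KO in both conditions. Fancd2 was at 368, 561 and 466 in WT and 192, 322 and 177 in KO under DMSO (log2 change −1.04 ± 0.22 SE, limma adjusted p = 0.00732). With DMXAA the counts were 139, 195 and 242 in WT and 63.2, 96.4 and 45.7 in KO (log2 change −1.50 ± 0.28 SE, limma adjusted p = 0.00308). Fanci was at 631, 604 and 565 in WT and 393, 442 and 531 in KO under DMSO (log2 change −0.41 ± 0.12 SE, limma adjusted p = 0.0361), and at 313, 309 and 373 in WT and 198, 238 and 256 in KO under DMXAA (log2 change −0.52 ± 0.13 SE, limma adjusted p = 0.0154). The groups did not overlap for either gene, yet the DMSO call of Fanci was lost when any 1 of 5 of the 6 libraries was left out (all but KO DMSO library 3; limma adjusted p up to 0.143).

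Of the helicases and the nuclease scaffold, 3 of 4 were lower in KO under DMSO and 1 of 4 under DMXAA. Pif1 (chr9:65587160-65595967, plus strand, mm10), a helicase of replication forks and of DNA synthesis in recombination, had the lowest log2 change of the 36 in both conditions. It was at 242, 255 and 279 in WT and 31.2, 51.9 and 76.7 in KO under DMSO (log2 change −2.35 ± 0.27 SE, limma adjusted p = 0.000161). Under DMXAA it was at 83.2, 47.0 and 72.4 in WT and 11.3, 13.6 and 11.9 in KO (log2 change −2.33 ± 0.31 SE, limma adjusted p = 0.000463). Brip1 (Fancj), the helicase partner of Brca1, was at 189, 212 and 171 in WT and 93.5, 88.1 and 85.5 in KO under DMSO (log2 change −1.08 ± 0.15 SE, limma adjusted p = 0.000643), and at 88.4, 139 and 85.2 in WT and 79.2, 73.0 and 59.6 in KO under DMXAA (log2 −0.53, limma adjusted p = 0.127). Blm, the helicase that dissolves crossed strands, was at 624, 706 and 649 in WT and 506, 537 and 476 in KO under DMSO (log2 change −0.38 ± 0.09 SE, limma adjusted p = 0.0169) and was not called under DMXAA (log2 −0.11, limma adjusted p = 0.587). Its DMSO call was lost without KO DMSO library 1 or 3 or WT DMSO library 2 (limma adjusted p up to 0.0774). Slx4, the scaffold of the resolving nucleases, was not called (log2 −0.10, limma adjusted p = 0.589 under DMSO and log2 −0.17, limma adjusted p = 0.158 under DMXAA).

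Among the checkpoint kinases, Chek1 alone was called, and in both conditions. Chek1, which Atr activates at stalled forks, was at 229, 191 and 175 in WT and 47.7, 68.6 and 84.4 in KO under DMSO (log2 change −1.58 ± 0.22 SE, limma adjusted p = 0.000554). The DMXAA libraries had 72.8, 68.5 and 80.9 in WT and 7.54, 27.3 and 39.7 in KO (log2 change −1.81 ± 0.48 SE, limma adjusted p = 0.0221). The lowest of these values rested on 8 reads, and the DMXAA call was lost when any WT DMXAA library was left out (limma adjusted p 0.0551 to 0.0703). Chek2 was at 2386, 2577 and 2742 in WT and 2266, 2196 and 2321 in KO under DMSO, the KO libraries being lower without passing the test (log2 −0.18, limma adjusted p = 0.103). Atm (log2 −0.02, limma adjusted p = 0.926) and Atr (log2 0.18, limma adjusted p = 0.176) were not called under DMSO, nor under DMXAA (log2 −0.12, limma adjusted p = 0.474 and log2 −0.11, limma adjusted p = 0.459).

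Several calls between the genotypes changed when 1 library was left out. No call changed direction in these fits, which have 1 library fewer. Under DMSO, Rad51b passed without KO library 1 (−1.18, limma adjusted p = 0.0172), Fancb without WT library 2 (−0.76, 0.0335), Chek2 without WT library 1 (−0.23, 0.0411) and Fancc, as higher, without KO library 2 (0.57, 0.00315). Under DMXAA, Brca2 passed without KO library 3 (−0.92, 0.0272) or WT library 2 (−0.90, 0.0384), Rad51b without KO library 1 (−1.67, 0.0234) and Chek2 without WT library 3 (−0.25, 0.0341). The DMXAA calls of Bard1 and Exo1 were lost in 5 of 6 such fits each, every one except that without KO library 2 for Bard1 and that without KO library 3 for Exo1 (limma adjusted p up to 0.0963 and 0.119). That of Fancb was lost without KO library 1 or 2 or WT library 1 or 3 (up to 0.116), and that of Fanca without KO library 1 or any WT library (up to 0.0781). Rad52 lost its call without KO library 1 or 2 or WT library 1 (up to 0.0757), Fancc without KO library 1 or WT library 2 or 3 (up to 0.069), and Fanci without KO library 1 or WT library 3 (up to 0.0615). Brca1, Rad54l, Rad54b, Ube2t, Fancd2 and Pif1 were called in both conditions in every one of these fits.

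The next comparison was DMXAA against DMSO within each genotype. In WT macrophages 4 members were higher and 18 lower under DMXAA, 22 of 36 (61.1%), where 62.8% of 12752 tested genes were called (31.7% higher and 31.1% lower). In KO macrophages 7 were higher and 16 lower, 23 of 36 (63.9%), where 66.6% of 12704 tested genes were called (33.7% higher and 32.9% lower). The share of members called was thus close to that of all tested genes in both genotypes. The median log2 change of the 36 was −0.29 in WT and −0.32 in KO, beside a median close to 0 for all tested genes in each. At least 2-fold and called were 6 members in WT (16.7%, beside 18.8% of tested genes) and 9 in KO (25%, beside 20.1%).

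The split by direction moved with the scaling. With every library set to the same total, the median of all tested genes shifted to −0.32 in WT and −0.39 in KO. The calls among all tested genes then became 16.1% higher and 55.6% lower in WT, and 15.7% and 61.6% in KO. The members became 3 higher and 25 lower in WT and 3 higher and 26 lower in KO. Relative to the median of all tested genes, the members' median was −0.29 in WT and −0.31 in KO under that scaling. The values that follow are on the deposited scaling.

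In both genotypes 14 genes were lower under DMXAA, which is 77.8% of the 18 lower in WT and 87.5% of the 16 lower in KO: Brca2, Rad51c, Rad54b, Fancc, Fance, Fancm, Ube2t, Fancd2, Fanci, Blm, Pif1, Atr, Chek1 and Chek2. Xrcc2, Rad50, Exo1 and Brip1 passed only in WT, and Rad52 and Atm only in KO. Rad51d, Rbbp8, Fanca and Fancl were higher in both, which was 4 of 4 in WT (100%) and 4 of 7 in KO (57.1%). Bard1, Palb2 and Rad54l passed as higher only in KO. The overlap between genotypes among all tested genes was not counted. Of these, 31.1% were lower in WT and 32.9% in KO. Groups of 3 libraries did not overlap for 24 of 36 members in each genotype (66.7%, beside 68.8% of tested genes in WT and 71% in KO).

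**Figure D4:**
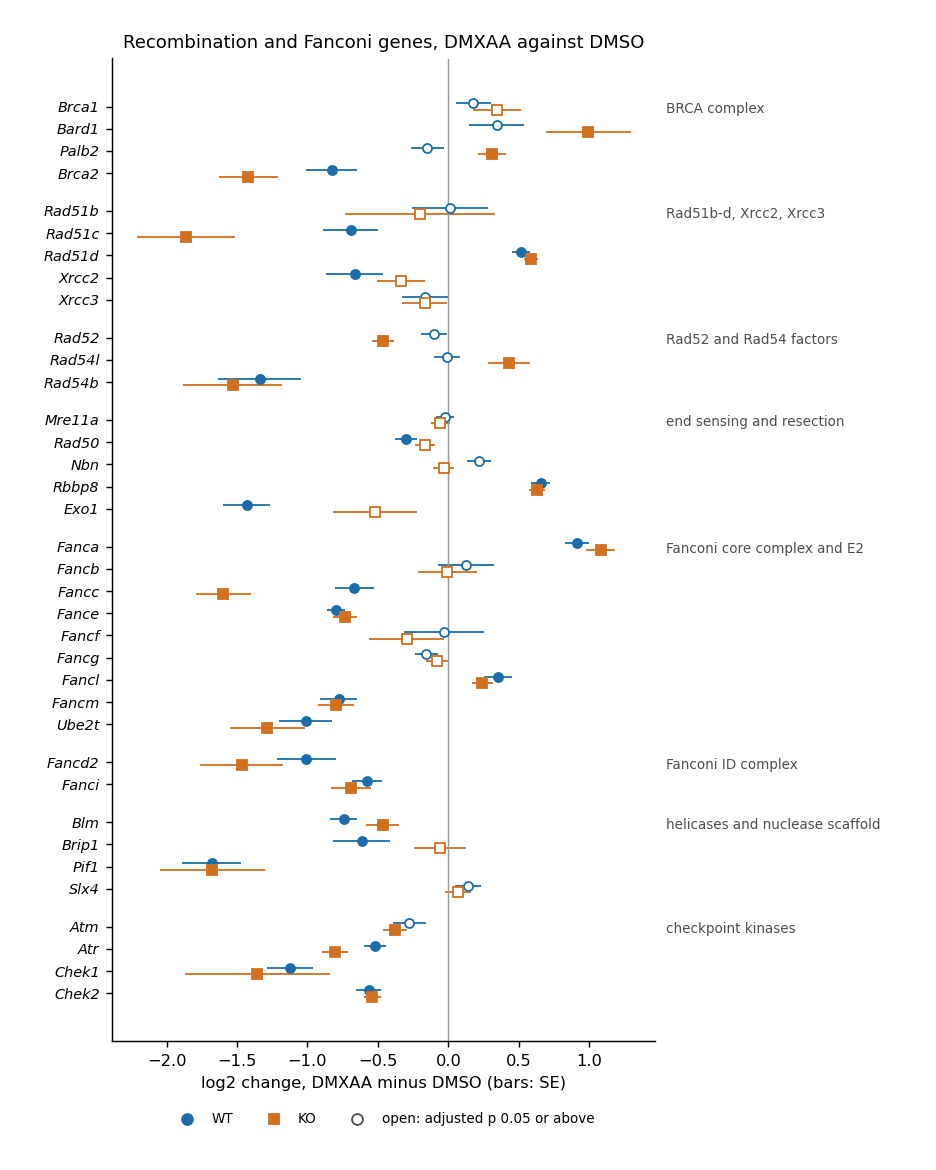
Log2 change of each of the 36 members, DMXAA minus DMSO, in WT (circles) and KO (squares), grouped by role. Points are limma estimates from 3 against 3 libraries, bars are standard errors, and open points have an adjusted p of 0.05 or above. Filled points run from 1.08 for Fanca in KO to −1.86 for Rad51c in KO.

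Fanca had the largest rise of the members. It was at 515, 565 and 485 under DMSO and 960.1, 955 and 1024 under DMXAA in WT (log2 change 0.91 ± 0.09 SE, limma adjusted p = 7.67e-06), and at 377, 368 and 389 under DMSO and 704, 818 and 887 under DMXAA in KO (log2 change 1.08 ± 0.10 SE, limma adjusted p = 4.81e-06). Rbbp8 rose from 3539, 3733 and 3407 to 5703, 5147 and 6011 in WT (log2 change 0.66 ± 0.07 SE, limma adjusted p = 1.55e-05) and from 3844, 3990.0 and 4161 to 5795, 6527 and 6234 in KO (log2 change 0.63 ± 0.06 SE, limma adjusted p = 4.34e-06). Rad51d rose from 5855, 5184 and 5374 to 7826, 7357 and 8299 in WT (log2 change 0.52 ± 0.06 SE, limma adjusted p = 5.98e-05) and in KO from 5055, 5274 and 4872 to 7420.1, 7934 and 7447 (log2 change 0.58 ± 0.05 SE, limma adjusted p = 2.82e-06). For these 3 genes every DMXAA library was above every DMSO library in both genotypes, and they stayed higher and called with every library at the same total.

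Fancl, the ligase subunit of the core, was at 1914, 2029 and 1706 under DMSO and 2692, 2425 and 2102 under DMXAA in WT (log2 change 0.35 ± 0.10 SE, limma adjusted p = 0.0105), where its change was 0.03 (limma adjusted p = 0.783) with every library at the same total. In KO it was at 1993, 2102 and 2200.4 under DMSO and 2553, 2253 and 2649.7 under DMXAA (log2 change 0.24 ± 0.07 SE, limma adjusted p = 0.0138), and at the same total its KO change was −0.15 (limma adjusted p = 0.0901). Bard1 was at 18.8, 28.9 and 17.2 under DMSO and 37.9, 46.8 and 44.4 under DMXAA in KO (log2 change 0.99 ± 0.30 SE, limma adjusted p = 0.0142), with 0.62 (limma adjusted p = 0.0864) at the same total, and it was not called in WT (log2 0.34, limma adjusted p = 0.15). Palb2 was at 798, 769 and 767 under DMSO and 1136, 879 and 902 under DMXAA in KO (log2 change 0.31 ± 0.10 SE, limma adjusted p = 0.0195), and its change was −0.08 (limma adjusted p = 0.512) at the same total. Rad54l was at 627, 727 and 459 under DMSO and 725, 815 and 869.5 under DMXAA in KO, where the groups overlapped (log2 change 0.43 ± 0.15 SE, limma adjusted p = 0.028), and its change was 0.04 (limma adjusted p = 0.815) at the same total. Brca1 was not called in either genotype, at 256, 329 and 339 under DMSO and 349.6, 331 and 357 under DMXAA in WT (log2 0.18, limma adjusted p = 0.243) and 129.8, 95.9 and 117 under DMSO and 131, 138 and 164 under DMXAA in KO (log2 0.34, limma adjusted p = 0.099).

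Both members of the Fanconi ID pair and Ube2t fell in both genotypes. Fancd2 was at 329, 500.4 and 417 under DMSO and 151, 212 and 262 under DMXAA in WT (log2 change −1.01 ± 0.21 SE, limma adjusted p = 0.00205), and had a log2 change of −1.47 ± 0.29 (SE; limma adjusted p = 0.00127) in KO. Fanci had a log2 change of −0.58 (limma adjusted p = 0.000842) in WT and a log2 change of −0.69 (limma adjusted p = 0.0015) in KO. Ube2t had a log2 change of −1.01 (limma adjusted p = 0.000977) in WT and a log2 change of −1.28 (limma adjusted p = 0.00167) in KO. Of the core, Fance fell from 3634, 3119 and 3374 to 1943, 1952 and 1918 in WT (log2 change −0.80 ± 0.07 SE, limma adjusted p = 3.17e-06) and from 4079.9, 3467 and 3297 to 2038, 2312 and 2150.0 in KO (log2 change −0.73 ± 0.08 SE, limma adjusted p = 2.28e-05). Fancm, the translocase that finds the crosslink, had a log2 change of −0.78 (limma adjusted p = 0.000537) in WT and a log2 change of −0.80 (limma adjusted p = 0.000312) in KO. Fancc fell from 921, 821 and 971 to 451, 667 and 606 in WT (log2 change −0.67 ± 0.14 SE, limma adjusted p = 0.00191) and from 1391, 817 and 1377 to 330.2, 379 and 449 in KO (log2 change −1.60 ± 0.19 SE, limma adjusted p = 3.69e-05).

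Pif1 fell from 216, 227 and 249 to 89.9, 51.1 and 78.6 in WT (log2 change −1.68 ± 0.21 SE, limma adjusted p = 6.25e-05) and had a log2 change of −1.67 ± 0.37 (SE; limma adjusted p = 0.00238) in KO. Exo1 fell from 151, 154 and 137 to 57.3, 47.9 and 56.6 in WT (log2 change −1.43 ± 0.17 SE, limma adjusted p = 4.13e-05). In KO it started at 48.3, 56.9 and 31.3 and was at 28.4, 27.2 and 36.6 under DMXAA, which did not pass (log2 −0.52, limma adjusted p = 0.147). Rad51c was at 139, 218 and 149 under DMSO and 46.3, 75.1 and 25.5 under DMXAA in KO (log2 change −1.86 ± 0.35 SE, limma adjusted p = 0.00078), and had a log2 change of −0.69 ± 0.19 (SE; limma adjusted p = 0.0105) in WT. Brca2 was at 258, 307 and 275 under DMSO and 166, 119 and 194 under DMXAA in WT (log2 change −0.83 ± 0.18 SE, limma adjusted p = 0.00243), and at 294, 267 and 242 under DMSO and 96.8, 74.0 and 135 under DMXAA in KO (log2 change −1.42 ± 0.21 SE, limma adjusted p = 0.000143). Rad54b had a log2 change of −1.34 (limma adjusted p = 0.00282) in WT and a log2 change of −1.53 (limma adjusted p = 0.00294) in KO, with the uncertainty given above.

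The checkpoint kinases were lower under DMXAA in 3 of 4 cases in WT and 4 of 4 in KO, beside 31.1% and 32.9% of all tested genes. Atr, which senses single-stranded DNA, was at 723, 773 and 808 under DMSO and 527, 548 and 528 under DMXAA in WT (log2 change −0.52 ± 0.08 SE, limma adjusted p = 0.000288) and had a log2 change of −0.81 ± 0.09 (SE; limma adjusted p = 2.44e-05) in KO. Chek2 was at 2129.9, 2297 and 2450.2 under DMSO and 1658, 1629 and 1367 under DMXAA in WT (log2 change −0.57 ± 0.09 SE, limma adjusted p = 0.000296) and had a log2 change of −0.54 ± 0.06 (SE; limma adjusted p = 1.97e-05) in KO. Chek1 was at 205, 170.5 and 156 under DMSO and 78.7, 74.5 and 87.8 under DMXAA in WT (log2 change −1.13 ± 0.16 SE, limma adjusted p = 0.000176). In KO it was at 43.9, 62.8 and 77.7 under DMSO and 8.41, 30.5 and 44.4 under DMXAA, where the groups overlapped (log2 change −1.35 ± 0.52 SE, limma adjusted p = 0.0397). Without KO DMXAA library 1 that change was −0.69 (limma adjusted p = 0.0863), and the call was also lost without KO DMSO library 2 (0.0948) or 3 (0.12). Leaving out 1 library also ended the calls of Xrcc2 in WT (without WT DMSO library 1 or 2, limma adjusted p up to 0.0648) and Brip1 in WT (without WT DMSO library 1 or 2 or WT DMXAA library 1 or 3, up to 0.0828). In KO it ended those of Palb2 (without KO DMSO library 2 or KO DMXAA library 1, up to 0.0629), Rad54l (KO DMSO library 3, KO DMXAA library 2 or 3, up to 0.0951) and Fancl (KO DMSO library 1 or KO DMXAA library 3, up to 0.0607). In WT, Atm passed without WT DMSO library 1 (−0.36, 0.0305) or WT DMXAA library 2 (−0.38, 0.0201), and Palb2 without WT DMXAA library 1 (−0.30, 0.0163). In KO, Rad50 (−0.20, 0.0422) and Exo1 (−0.76, 0.0467) passed without KO DMSO library 3. Atm, which answers to double-strand breaks, had a log2 change of −0.28 (limma adjusted p = 0.0643) in WT and a log2 change of −0.38 (limma adjusted p = 0.00251) in KO.

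Whether the genotype difference changed with DMXAA was tested as an interaction over all 12 libraries, subtracting the KO against WT difference of the DMSO libraries from that of the DMXAA libraries. Of 36 members 0 were called higher and 1 lower (2.78%), where 8.97% of 12263 tested genes were called (5.59% higher and 3.38% lower). The one was Fancc, with a log2 change of −0.93 ± 0.27 (SE; limma adjusted p = 0.0434) and a 95% interval of −1.50 to −0.36. Leaving out 1 library at a time gave Fancc changes from −1.18 to −0.80 and ended its call in 9 of 12 cases, all except KO DMSO library 2, KO DMXAA library 3 and WT DMXAA library 1 (limma adjusted p up to 0.112). Its opposite-strand neighbours that share exon bases are 2010111I01Rik and Gm16133. At an unadjusted limma p below 0.05, 3 members were higher (Palb2, Rad54l and Exo1) and 5 lower, beside 12.4% and 9.94% of tested genes, and edgeR and DESeq2 each called 0 higher and 1 lower.

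The other members did not pass. Rad51c had an interaction of −1.17 ± 0.44 (SE, limma adjusted p = 0.126), Rad52 of −0.36 ± 0.12 (0.0877) and Exo1 of 0.91 ± 0.33 (0.105). Palb2 had 0.46 ± 0.17 (0.12). For Brca1 it was 0.16, with a 95% interval of −0.28 to 0.61, and for Pif1 0.02, with −0.87 to 0.91. Leaving out 1 library brought a call for 3 of these: Rad52 passed without WT DMSO library 3 (−0.46, 0.0188), Rad51c without KO DMXAA library 2 (−1.53, 0.0252) and Palb2 without WT DMXAA library 1 (0.61, 0.0187). Members called in 1 condition only are therefore not shown to differ between the conditions. Fancc alone passed, and its call was lost in 9 of 12 fits without a library. That is 2.78% of the members, beside 8.97% of all tested genes.

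The wider repair pathways were described from lists of genes that are not members. For comparison, 9.58% of all tested genes were lower in KO and 7.04% higher under DMSO, and 10.8% and 10.7% under DMXAA. Of 34 tested other homologous recombination genes, 13 were lower in KO under DMSO and 0 higher (median log2 change −0.17). Among them Fignl1, an ATPase of recombination, had a log2 change of −1.59 (limma adjusted p = 6.16e-05) and Hrob, which works with the Mcm8 and Mcm9 helicase, had a log2 change of −2.59 (limma adjusted p = 0.000127). Under DMXAA 6 of 35 were lower and 0 higher (median −0.11), with Rad51ap1, a strand exchange factor, at −1.82 (limma adjusted p = 0.000202) and Fignl1 at −1.41 (0.00153). Of 20 other checkpoint and break signalling genes, 6 were lower and 0 higher under DMSO (median −0.08), including Clspn, the adaptor for Chek1 (log2 −1.47, limma adjusted p = 1.41e-05), and Timeless of the fork protection complex (log2 −1.16, limma adjusted p = 9.93e-05). Under DMXAA 2 were lower, Clspn (log2 −1.88, limma adjusted p = 8.33e-05) and Timeless (log2 −0.46, limma adjusted p = 0.000371), and 1 was higher, Cdc25b, a phosphatase that starts mitosis (log2 0.48, limma adjusted p = 0.00033).

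Of the other crosslink repair genes, 2 of 17 were lower in KO under DMSO and 0 higher (median −0.02), Rad18 (log2 −0.55, limma adjusted p = 0.0187) and Cenps (log2 −1.28, limma adjusted p = 0.0256). Under DMXAA 0 were lower and 2 higher, Faap20 (log2 0.18, limma adjusted p = 0.0343) and Dclre1a (log2 0.18, limma adjusted p = 0.0456). Both were lost with the upper quartile or the total set equal. Of 16 end joining genes, which rejoin breaks without a template, limma called 0 under DMSO (0 higher and 1 lower at an unadjusted p below 0.05, and 0 in edgeR and DESeq2; median −0.04). Under DMXAA 1 was lower, Xrcc5 (log2 −1.88, limma adjusted p = 0.00694), and 0 were higher. A test of the difference between these lists and the members was not made.

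Under DMXAA against DMSO, between 43.75% and 65% of the genes in each of these lists were called in WT, beside 62.8% of all tested genes. In KO it was between 45.5% and 56.25%, beside 66.6%. The other recombination genes were 6 higher and 12 lower of 34 in WT and 8 higher and 7 lower of 33 in KO. Brcc3, a deubiquitinase found with Brca1, rose in WT (log2 1.41, limma adjusted p = 1.8e-08) and in KO (log2 1.58, limma adjusted p = 5.1e-10), and Fignl1 fell in WT (log2 −1.28, limma adjusted p = 3.48e-06). The crosslink repair genes were 3 higher and 8 lower of 17 in WT and 5 and 3 in KO. Dclre1a, a crosslink nuclease, rose in WT (log2 0.80, limma adjusted p = 3.48e-06) and in KO (log2 0.95, limma adjusted p = 1.94e-07). Of the 20 checkpoint and break signalling genes, 3 were higher and 10 lower in WT and 4 and 7 in KO. Timeless rose in WT (log2 1.96, limma adjusted p = 2.66e-08) and KO (log2 2.66, limma adjusted p = 7.17e-09), and Clspn fell in KO (log2 −1.71, limma adjusted p = 7.61e-06). Of the 16 end joining genes, 2 were higher and 5 lower in WT and 5 and 4 in KO. Dclre1c (Artemis), the nuclease that opens hairpin ends, rose in WT (log2 1.19, limma adjusted p = 3.16e-08) and KO (log2 1.03, limma adjusted p = 4.23e-08), and Parp1, which binds DNA breaks, fell in both (log2 −0.74, limma adjusted p = 3.92e-06 and log2 −0.74, limma adjusted p = 5.7e-07).

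**Figure D5:**
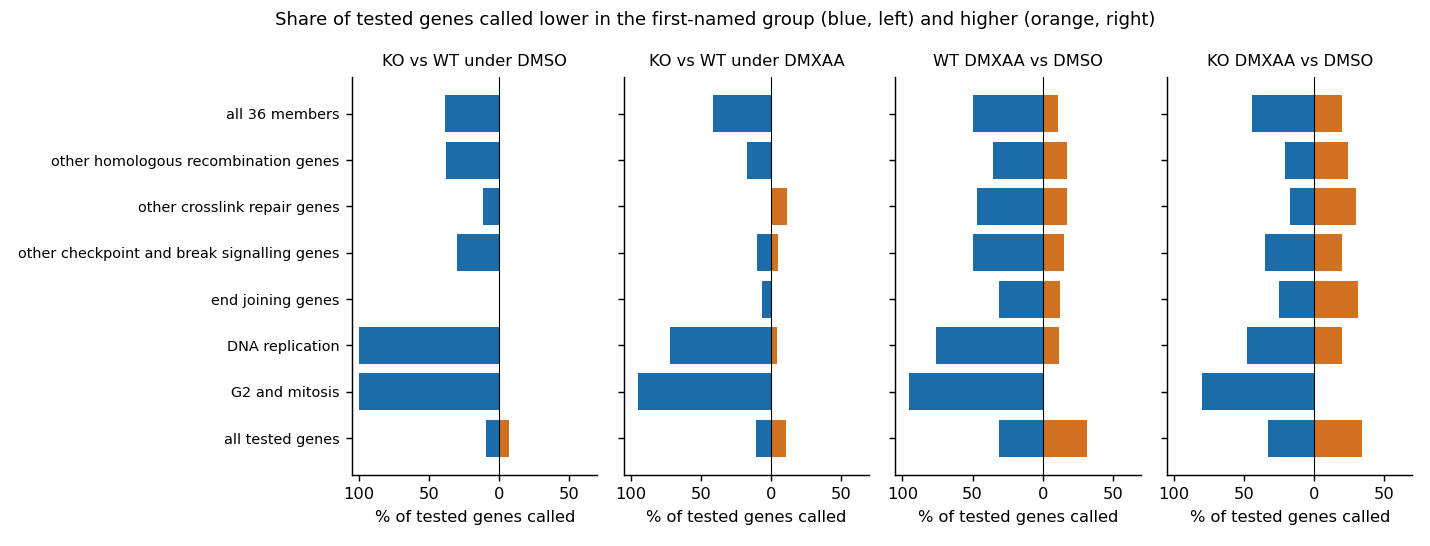
Share of tested genes called lower (left of 0) and higher (right of 0) in each list, for the 4 comparisons. Bars are percent of the tested genes of the list, with all tested genes in the last row. In KO against WT under DMSO, 38.9% of the members and 100% of the DNA replication and of the G2 and mitosis genes were lower, beside 9.58% of all tested genes.

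Genes of cell division moved beside the members. All 25 tested DNA replication genes were lower in KO under DMSO (median log2 change −0.95), with Mcm5 of the replicative helicase at −1.53 (limma adjusted p = 3.66e-06), as were all 20 G2 and mitosis genes (median −1.16), with Top2a, the topoisomerase of chromosome separation, at −1.31 (4.37e-06). The summed level of the replication genes was 527 to 586 CPM in KO and 900.5 to 1033 in WT. That of the mitosis genes was 99.1 to 115 in KO and 210.4 to 234 in WT, and that of the 36 members 387 to 404 in KO and 424 to 426 in WT. Under DMXAA 18 of 25 replication genes were lower in KO and 1, Pcna, higher (median −0.70), and 18 of 19 mitosis genes were lower (median −1.04). Among all tested genes, 9.58% were lower in KO and 7.04% higher under DMSO, and 10.8% and 10.7% under DMXAA. The part of cell division in the members' differences was not tested.

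Under DMXAA against DMSO, 19 of 25 replication genes were lower and 3 higher in WT (median −0.57), and 12 lower and 5 higher in KO (median −0.19). The mitosis genes were lower in 19 of 20 cases in WT (median −1.52) and 16 of 20 in KO (median −1.55). Of all tested genes, 31.1% were lower in WT and 32.9% in KO. In the interaction, 9 of 25 replication genes were higher and 0 lower (median 0.35), led by Pcna (log2 1.11, limma adjusted p = 1.41e-06), the sliding clamp. Of all tested genes, 5.59% were higher there and 3.38% lower.

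Markers of other cells also differed between the groups. The summed level of the 8 neutrophil markers was 0.744 to 1.28 CPM in KO and 5.47 to 7.75 in WT under DMSO, with Ly6g and Elane at 0 in both groups. Under DMXAA it was 0.774 to 0.834 and 2.72 to 3.06. The 6 stromal markers summed to 0.947 to 5.41 in KO and 0.381 to 0.83 in WT under DMSO. In WT the 5 monocyte markers summed to 11.1 to 15.7 under DMSO and 409 to 431 under DMXAA, and in KO to 11.8 to 12.1 and 257 to 334. Plac8 was the highest of them under DMXAA, at a mean of 285 CPM in WT and 161 in KO, and Cd177 stayed under 1 CPM. The 4 tested monocyte markers were all higher under DMXAA, beside 31.7% of all tested genes in WT and 33.7% in KO. The 5 progenitor markers summed to 205 to 253 under DMSO and 10799 to 12687 under DMXAA in WT, and to 87.6 to 104 and 9872 to 10041 in KO. Ly6a carried this sum, and of the other progenitor markers 3 were lower under DMXAA in WT and 4 in KO, among them Cd34 (log2 −1.77, limma adjusted p = 1.15e-06 in WT). B cell markers summed to at most 1.98, T and NK cell markers to at most 0.292 and erythroid markers to at most 0.175 in any library. Their part in the members' differences was not tested.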

How the data were processed

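RNA was taken from mouse bone marrow-derived macrophages with a strand-specific mRNA library kit, per the labels' protocols. The submitters' processing notes name HISAT2, featureCounts and mm10. Neither their versions nor the annotation and strand setting are given in the sources used here. As values, the authors deposited a signal per gene, normalized read counts, in 4 tables of 6 libraries (2 genotypes, 2 treatments), each scaled separately. Every value divided by its step gave whole reads (100%, tolerance 0.01), with 0 differences between the 2 tables that hold a library, and listed genes held 79481824 to 98135603 reads per library.

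Each comparison was fitted within 1 table with limma 3.58.1 (R 4.3.3; lmFit, eBayes with trend) on log2(normalized count + 1), which understates changes of low genes, for genes with a mean of at least 10 over the 6 libraries. P-values were two-sided and adjusted by Benjamini-Hochberg over all tested genes, and calls used 0.05. The interaction used 12 libraries from the DMSO and DMXAA tables. All 36 members passed the filter in every comparison. Alternatives were edgeR 4.0.16 and DESeq2 1.42.0 on the recovered reads, pseudocounts 0.5 and 10, filters of 0 and 50, 2 other scalings, replicate blocks, a fit over all libraries and leaving out each library. The scripts were tested on simulated data. Exon positions and lengths came from GENCODE vM21 (mm10), promoters from RefSeq (GRCm38.p6).

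Of genes outside the 36, up to 2 called ones per list and direction, taken by lowest p, were named. Some genes of these lists are not reported here and were left out of the lists' counts. The members and lists were chosen with earlier results of these data known. The labels do not say whether libraries of the same title number are paired. Their deviations correlated only weakly (−0.04 to 0.07), so numbers were not used as pairs. The authors' tables of differential expression were not used.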

Additional observations from a re-analysis of the deposited data

Results flagged for a closer look

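The KO minus WT difference of Fancc under DMXAA differed from that under DMSO, by −0.93 on the log2 scale in the test of the difference itself (log2 change −0.93 ± 0.27 SE, limma adjusted p = 0.0434). Under DMSO 2 KO libraries lay above and 1 below the WT range, and under DMXAA all 3 KO libraries lay below it. The call was lost in 9 of 12 fits that left 1 library out, where the log2 change ran from −1.18 to −0.80. It was the 1 interaction call among the 36 members (2.78%), where 8.97% of all tested genes were called.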

How the results depend on the processing

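The members lower in KO under DMSO numbered 13 to 14 when each library was left out in turn, and 12 of the 14 were called in every fit that tested them, with another setting or without a library (not Fanci and Blm; Bard1 was not tested with the filter of 50). Those higher numbered 0 to 1 without a library (Fancc, 0.57, without KO DMSO library 2) and 1 with equal totals (Nbn, 0.25, limma adjusted p = 0.0485). Under DMXAA those lower numbered 9 to 15 without a library, those higher 0 throughout, and 7 of 15 held in every fit that tested them: Brca1, Rad51c, Rad54l, Rad54b, Ube2t, Fancd2 and Pif1 (Rad54b and Pif1 were not tested with the filter of 50). For DMXAA against DMSO without a library, WT counts were 4 higher and 16 to 19 lower, and KO counts 5 to 6 higher and 15 to 17 lower. With the upper quartile set equal 4 were higher in KO, and with equal totals 3 were higher and 26 lower. In KO 4 members turned sign with equal totals: Palb2 at −0.0775, Fancl at −0.147, Slx4 at −0.323 and Brca1, not called in either fit, at −0.0435. In WT 5 that were not called in either fit did so as well (Nbn, Brca1, Slx4, Fancb and Rad51b). The shift in the median of all tested genes, −0.39 in KO and −0.32 in WT, is part of this scaling. In the interaction 0 to 1 were higher and 0 to 1 lower without a library. A pseudocount of 10 gave 1 higher (Exo1, 0.91), no filter gave 0 lower (Fancc adjusted p = 0.0563), and equal totals gave 2 lower (Fancc and Rad52). The cause was not tested. With a replicate block by title number, 22 members were called for DMXAA in WT, 23 in KO, 13 for KO against WT under DMSO, 15 under DMXAA and 1 in the interaction. The labels do not say whether these title numbers pair the libraries. A block by library numeral, II and III, gave 20 calls for DMXAA in WT and 20 in KO. Chek1 is limited by a low count in KO under DMXAA, where 1 library held 8 reads of it.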
